A study of Mus musculus with 11 samples.

Results

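The genes described here are the 7 core genes of MHC class II antigen presentation in the mouse, H2-Aa, H2-Ab1, H2-Eb1, Cd74, H2-DMa, H2-DMb1 and Ciita, out of 46078 genes in the deposited count table. They were taken by gene symbol, and all 7 were found and passed the filter on low counts that left 16365 genes for testing. RNA was measured in T cells sorted from kidneys of mice with the WT genotype, whose age and strain the labels do not give. All mice had been immunised with recombinant mouse myeloperoxidase (MPO), the neutrophil enzyme that is a target of autoantibodies in vasculitis, and glomerulonephritis was then triggered with a low dose of sheep globulin directed at mouse basement membrane. Kidneys were taken on day 21, and cells of 3 mice were pooled for each sort. The sorts separated CD4+ and CD8+ cells by CD127, the alpha chain of the interleukin-7 receptor, and by the inhibitory receptor PD-1.

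From CD4+ cells came 2 libraries of the CD127-PD-1+ sort (CD4+CD127-PD-1+, n = 2) and 3 of the opposite sort (CD4+CD127+PD-1-, n = 3). CD8+ cells gave 3 libraries of each sort (CD8+CD127-PD-1+, n = 3, and CD8+CD127+PD-1-, n = 3). Another library of the first sort did not pass quality control, per the labels. The study title names blockade of the interleukin-7 receptor, and mice given that treatment were not analysed here, so every group carries the same disease and no group is healthy. Because mice were pooled, the spread given below is between pools and not between animals.

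MHC class II molecules show peptides from internalised proteins to CD4+ T cells. Each is a pair of an alpha and a beta chain that is assembled with the invariant chain (Cd74), moved to endosomes, freed of the invariant chain by proteases and loaded with peptide under the control of the DM heterodimer. Dendritic cells, macrophages and B cells make these proteins at high level, and resting mouse T cells are known for making little or none. Transcription depends on the transactivator CIITA, which does not bind DNA itself but docks on the RFX, CREB and NF-Y factors assembled on the X and Y boxes before class II genes.

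The promoters of 2 chain genes are shown because they carry the short boxes on which the shared control of these genes is known to rest. The letters come from RefSeq (GRCm38.p6), read 5′ to 3′ on the strand of the gene, and cover the 130 bases before the annotated start. H2-Aa is on the minus strand at chr17:34287824-34287953 and H2-Eb1 on the plus strand at chr17:34305737-34305866. Capitals mark matches, on either strand, to the Y box core ATTGG, the X1 box CTAGNNAC or the X2 core TGACG.

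H2-Aa: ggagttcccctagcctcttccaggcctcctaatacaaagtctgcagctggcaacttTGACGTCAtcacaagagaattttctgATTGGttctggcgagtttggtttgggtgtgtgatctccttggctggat

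H2-Eb1: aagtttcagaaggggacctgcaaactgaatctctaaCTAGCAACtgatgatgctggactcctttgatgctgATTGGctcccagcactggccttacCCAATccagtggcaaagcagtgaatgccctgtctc

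In H2-Aa the Y box core began at position -48 from the start, and 2 overlapping X2 cores on opposite strands began at -74 and -71. In H2-Eb1 the X1 box began at -94, and Y box cores began at -59 and, on the other strand, at -35. H2-DMb1 had an X1 box at -97 and a Y box core at -61. The X1 box and the bases after it are shown for H2-Eb1 (chr17:34305773-34305802) and H2-DMb1 (chr17:34153094-34153123), both on the plus strand, because the same bases follow the box in both.

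H2-Eb1 X1 box: CTAGCAACtgatgatgctggactcctttga

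H2-DMb1 X1 box: CTAGTAACtgatgatgctaggctgattcac

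Capitals mark the X1 box, and the 13 bases AACTGATGATGCT are in both. That run was in 3 of 32851 RefSeq promoters of 300 bases, those of H2-DMb1, H2-Eb1 and Slc39a10, or 0.0091% (this search was added after the sequences were seen). It was picked as the longest run that the H2-Eb1 and H2-DMb1 promoters share, so those hits were fixed in advance. H2-DMa and H2-DMb1 also shared 13 bases, all of them T, a run found in 891 promoters (2.7%). The H2-DMb1 stretch shown above lies before the RefSeq start but within the gene as GENCODE M21 gives it, which starts at chr17:34153072. The positions given for H2-DMb1 therefore hold for the RefSeq start only. Of the same promoters, 37.4% held ATTGG, 10.4% CTAGNNAC and 20.8% TGACG, so a match to one of these short motifs is common. The joint of the X1 and X2 boxes, ACAGATG, was in 5.01% and lay at -232 on the other strand in H2-Aa. H2-DMa had ATTGG at -198 in 1 of its promoter entries, and H2-Ab1, Ciita and Cd74 were not searched.

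Library totals ran from 10572505 to 16057310 counts, and 20514 to 21849 genes were detected per library. The sort markers followed the labels, with Il7r at 13.8 to 27.2 CPM in the CD127-PD-1+ groups and 329 to 454 CPM in the CD127+PD-1- groups (CPM, read counts scaled to library size). Pdcd1 measured 16.5 to 34.2 CPM against 0.844 to 2.57 CPM, Cd4 at most 9.70 CPM in the CD8+ groups and Cd8a at most 1.82 CPM in the CD4+ groups. The 10 T cell genes listed as markers summed to 1945 to 3012 CPM over the 11 libraries. Mitochondrial ribosomal RNA took 35.67 to 40.81% of counts in CD8+CD127-PD-1+ libraries and 28.11 to 31.78% in the others. With mitochondrial genes left out, 6 of the 7 class II genes were called higher in CD8+CD127-PD-1+ cells against 7 with them, and H2-DMa had a log2 fold change of 1.05 (edgeR adjusted p = 0.0514).

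Transcripts of the 7 genes were present in every library, and their level was highest in the CD127-PD-1+ groups. Together they took 0.381 and 1.079% of counts in the CD4+CD127-PD-1+ libraries and 0.08668 to 0.251% in the CD4+CD127+PD-1- libraries. In CD8+ cells they took 0.5997 to 0.9528% against 0.07813 to 0.3692%. For each of the 7 genes the group means fell in the same order, with CD8+CD127-PD-1+ first and CD4+CD127-PD-1+ next, followed by CD8+CD127+PD-1- and, last, CD4+CD127+PD-1-. In both CD127+PD-1- groups, the library numbered 1 was highest and the library numbered 3 lowest for all 7 genes.

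H2-Aa (ENSMUSG00000036594, chr17:34282744-34287823, minus strand, GRCm38) encodes the alpha chain of the I-A molecule. Among CD4+ cells, its level was 3317 and 1043 CPM in CD127-PD-1+ and 682, 452 and 239 CPM in CD127+PD-1- libraries. In CD8+ cells it measured 2570, 1983 and 3518 CPM in CD127-PD-1+ and 1027, 494 and 226 CPM in CD127+PD-1- libraries. Within each lineage the lowest CD127-PD-1+ library lay above the highest CD127+PD-1- library, although the CD8+CD127+PD-1- library numbered 1 came close to the lower CD4+CD127-PD-1+ library.

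H2-Ab1 (ENSMUSG00000073421, chr17:34257689-34269419) encodes the I-A beta chain, the partner of H2-Aa. It measured 1969 and 681 CPM in CD4+CD127-PD-1+ and 412, 250 and 126 CPM in CD4+CD127+PD-1- libraries. In CD8+ cells the values were 1580, 1288 and 2245 CPM against 762, 308 and 126.5 CPM. The states did not overlap within a lineage, but the highest CD8+CD127+PD-1- library lay above the lower CD4+CD127-PD-1+ library.

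H2-Eb1 (ENSMUSG00000060586, chr17:34305867-34316674) encodes the I-E beta chain. It measured 777 and 307 CPM in CD4+CD127-PD-1+ and 141, 95.4 and 51.0 CPM in CD4+CD127+PD-1- libraries. In CD8+ cells it measured 644, 605 and 925 CPM against 290, 119 and 46.7 CPM. All 5 CD127-PD-1+ libraries lay above all 6 CD127+PD-1- libraries. H2-Ea-ps, the alpha chain locus of I-E that is a pseudogene in some mouse strains, was at 0 counts in 4 libraries and was not tested.

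Cd74 (ENSMUSG00000024610) encodes the invariant chain, which fills the groove of new class II molecules and directs them to endosomes. It measured 4138 and 1504 CPM in CD4+CD127-PD-1+ and 994, 607 and 403 CPM in CD4+CD127+PD-1- libraries. In CD8+ cells it measured 3284, 2705 and 4466 CPM against 1321, 673 and 344 CPM. Each CD127-PD-1+ library was above each CD127+PD-1- library.

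H2-DMa (ENSMUSG00000037649, chr17:34119541-34139101) and H2-DMb1 (ENSMUSG00000079547, chr17:34153072-34160230) encode the chains of DM, which removes the invariant chain remnant and edits peptides. H2-DMa measured 105 and 51.0 CPM in CD4+CD127-PD-1+ and 43.2, 28.8 and 18.8 CPM in CD4+CD127+PD-1- libraries, and 114, 101 and 100.1 CPM against 66.8, 49.5 and 31.6 CPM in CD8+ cells. H2-DMb1 measured 28.95 and 12.3 CPM against 11.8, 6.90 and 4.65 CPM in CD4+ cells, and 30.6, 36.8 and 41.3 CPM against 20.5, 8.28 and 4.78 CPM in CD8+ cells. For H2-DMb1 the lower CD4+CD127-PD-1+ library lay just above the highest CD4+CD127+PD-1- library, the narrowest separation among the 7 genes in CD4+ cells. Reads of H2-DMb1 and its near copy H2-DMb2 may be assigned uncertainly.

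Ciita (ENSMUSG00000022504, chr16:10480059-10528418) encodes the transactivator of the other genes. It measured 51.9 and 24.9 CPM in CD4+CD127-PD-1+ and 18.6, 11.9 and 10.04 CPM in CD4+CD127+PD-1- libraries. In CD8+ cells it measured 66.8, 56.8 and 82.8 CPM against 37.9, 16.8 and 5.54 CPM. As for the chain genes, the states did not overlap within either lineage.

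**Figure D1:**
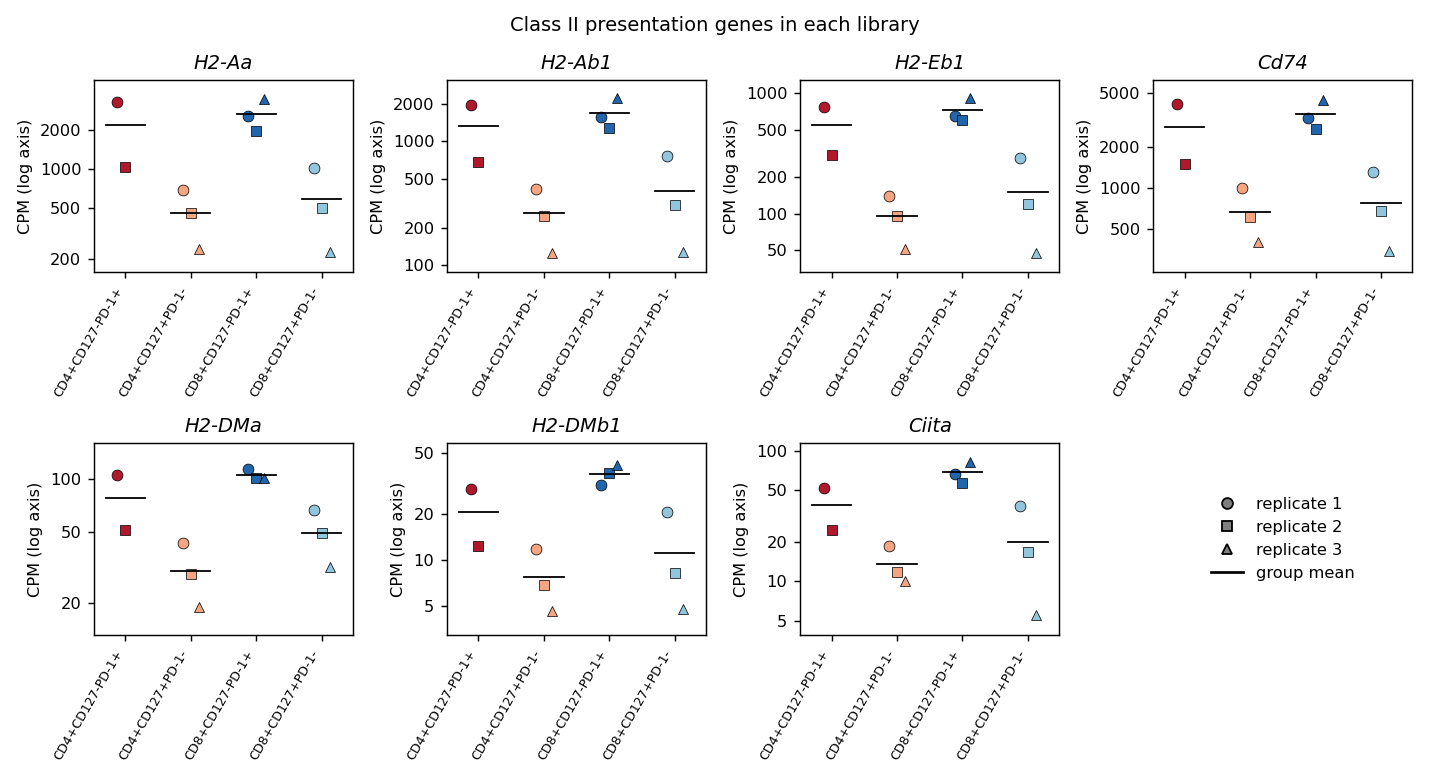
Level of each gene in each library, as CPM on a log axis, by sorted group. Symbols mark the library number and the bar the group mean; within each lineage every CD127-PD-1+ library lies above every CD127+PD-1- library. CPM is not divided by length, so heights compare libraries within a gene and not genes with each other.

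The first comparison asked which genes differed between CD127-PD-1+ and CD127+PD-1- cells of the CD4+ lineage. In the CD127-PD-1+ sort, 5 of the 7 class II genes were higher and 0 lower (edgeR quasi-likelihood test, adjusted p under 0.05 over 16365 genes). Of all tested genes, 6.81% were called higher, 4.86% lower and 11.7% in either direction. H2-Eb1 measured 542 ± 332 CPM (SD, n = 2) against 95.8 ± 44.9 CPM (SD, n = 3), a log2 fold change of 2.50 (SE 0.623, edgeR adjusted p = 0.0242). H2-Ab1 measured 1325 ± 910 against 262 ± 143 CPM (2.34, SE 0.660, edgeR adjusted p = 0.0407). H2-Aa measured 2180 ± 1608 against 458 ± 222 CPM (2.25, SE 0.603, edgeR adjusted p = 0.0329), a difference of 4.76-fold. The invariant chain gene Cd74 differed by a similar factor, 2821 ± 1862 against 668 ± 300 CPM (2.08, SE 0.536, edgeR adjusted p = 0.0280). H2-DMa, a chain of the peptide editor, differed by less, 77.8 ± 37.8 against 30.3 ± 12.3 CPM (1.36, SE 0.367, edgeR adjusted p = 0.0341).

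H2-DMb1 (20.6 ± 11.8 against 7.80 ± 3.68 CPM; 1.40, SE 0.540, edgeR adjusted p = 0.125) and Ciita (38.4 ± 19.1 against 13.5 ± 4.52 CPM; 1.50, SE 0.571, edgeR adjusted p = 0.119) did not pass the threshold; without the filter on low counts both did (adjusted p = 0.0106 and 0.00541). All 7 genes had every CD4+CD127-PD-1+ library above every CD4+CD127+PD-1- library, as had 21.3% of tested genes (19.4% had the opposite separation). The median log2 fold change was 2.08 over the 7 genes and 0.02 over all tested genes. In sorted bulk samples, fewer cells of a type and less RNA per cell cannot be told apart, so these values do not say which cells in a sort held the transcripts. The calls rested on few libraries: 0 of the 7 genes passed without CD4+CD127-PD-1+ replicate 1, without CD4+CD127+PD-1- replicate 2 or without CD4+CD127+PD-1- replicate 3, and 3 passed without CD8+CD127-PD-1+ replicate 2, which enters only the shared estimate of spread. The log2 fold change stayed above 0 for all 7 genes in all 20 alternative analyses, between 0.66 for H2-DMb1 and 3.03 for H2-Eb1.

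The same question was asked in CD8+ cells, with 3 libraries on each side that are not shared with the CD4+ comparison. Both comparisons nevertheless came from 1 fit of all 11 libraries with a shared estimate of spread. Whether CD4+ and CD8+ sorts came from the same mice is not established, so the CD8+ result is not an independent repeat. All 7 class II genes were higher in CD8+CD127-PD-1+ cells, against 9.06% of tested genes called higher, 6.56% lower and 15.6% in either direction (edgeR). H2-Eb1 measured 725 ± 174 CPM (SD, n = 3) against 152 ± 125 CPM (SD, n = 3), a log2 fold change of 2.25 (SE 0.580, edgeR adjusted p = 0.0220). H2-Aa measured 2690 ± 774 against 582.2 ± 408 CPM (2.21, SE 0.565, edgeR adjusted p = 0.0215), and H2-Ab1 1704 ± 490 against 399 ± 328 CPM (2.10, SE 0.614, edgeR adjusted p = 0.0391). Cd74, at 3485 ± 898 against 779 ± 497 CPM, had the smallest p of the 7 (2.16, SE 0.503, edgeR adjusted p = 0.0135).

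The transactivator and both DM genes were higher as well. Ciita, the transactivator, measured 68.8 ± 13.1 against 20.1 ± 16.4 CPM (1.77, SE 0.521, edgeR adjusted p = 0.0395). H2-DMb1 measured 36.2 ± 5.38 against 11.2 ± 8.23 CPM (1.69, SE 0.489, edgeR adjusted p = 0.0365), and H2-DMa 104.8 ± 7.59 against 49.3 ± 17.6 CPM (1.09, SE 0.333, edgeR adjusted p = 0.0470). The states did not overlap for any of the 7 genes, as for 18% of tested genes in this direction and 16.4% in the opposite one, and the median log2 fold change was 2.10 over the 7 genes and 0.01 over all genes. Calls again rested on few libraries, with 0 genes passing without CD8+CD127+PD-1- replicate 2, 1 without CD8+CD127-PD-1+ replicate 3, 3 without CD8+CD127-PD-1+ replicate 1 or 2 or CD4+CD127+PD-1- replicate 2, and 4 without CD8+CD127+PD-1- replicate 3. With library totals alone as the scale, which shifts the median of all genes to -0.24, 3 passed (H2-Aa, H2-Eb1 and Cd74); log2 fold changes lay between 0.84 for H2-DMa and 3.13 for H2-Eb1 over the 20 alternatives.

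**Figure D2:**
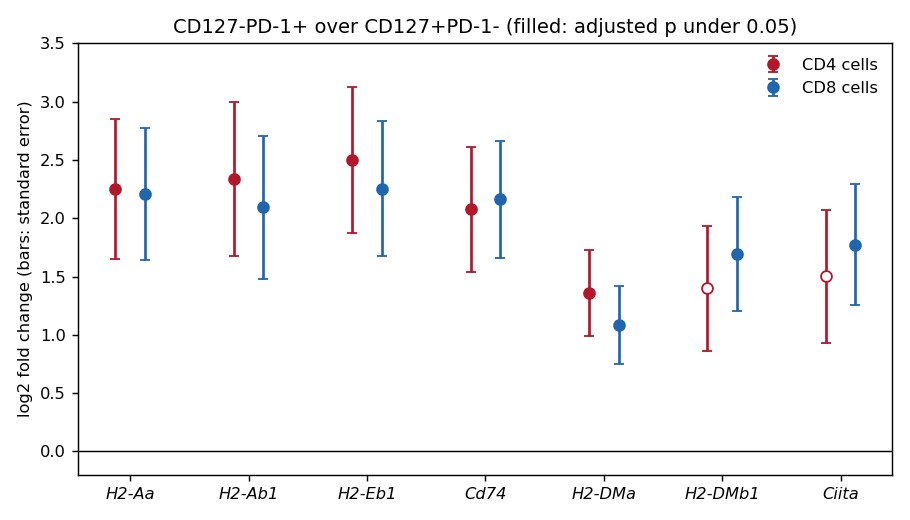
Log2 fold change of each gene, CD127-PD-1+ over CD127+PD-1-, in CD4+ and CD8+ cells. Bars are standard errors and filled points passed an adjusted p of 0.05; H2-DMb1 and Ciita in CD4+ cells are the open points, and all 14 values lie above 1.

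CD4+ and CD8+ cells were then compared within each state. In CD127+PD-1- cells, 0 of the 7 genes passed edgeR's quasi-likelihood test, against 4.42% of tested genes (2.76% higher in CD4+ cells and 1.66% lower), and their libraries overlapped for all 7. The log2 difference, CD4+ minus CD8+, ran from -0.70 for H2-DMa (SE 0.337, edgeR adjusted p = 0.311) to -0.22 for Cd74 (SE 0.483, edgeR adjusted p = 0.871). In CD127-PD-1+ cells, 0 passed as well, against 2.44% of tested genes (1.6% higher and 0.843% lower), with differences from -0.84 for Ciita (SE 0.576, edgeR adjusted p = 0.616) to -0.30 for H2-Aa (SE 0.609, edgeR adjusted p = 0.903). The CD4+CD127-PD-1+ libraries lay below the CD8+CD127-PD-1+ libraries without overlap for Ciita and H2-DMb1, as for 13.5% of tested genes. For both comparisons the count was also 0 at an unadjusted p under 0.05, in DESeq2 and in limma-voom. These comparisons use the same libraries as the state comparisons and so do not stand apart from them.

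Whether the difference between states was itself larger in one lineage was tested as the CD4 minus CD8 difference of the log2 fold changes. It was -0.30 for H2-DMb1, -0.27 for Ciita, -0.08 for Cd74, 0.04 for H2-Aa, 0.24 for H2-Ab1, 0.25 for H2-Eb1 and 0.27 for H2-DMa, with SE from 0.496 to 0.885. 0 of the 7 genes passed edgeR's test (adjusted p from 0.994 to 1), against 0.00611% of tested genes, and the count was 0 at an unadjusted p under 0.05, in DESeq2 and in limma-voom. For each of the 7 genes the standard error was larger than the difference. That H2-DMb1 and Ciita passed in CD8+ and not in CD4+ cells is therefore not a measured difference between the lineages.

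For a comparison between genes, levels were divided by transcript length, using the longest principal transcript of GENCODE M21, as CPM per kilobase. In CD8+CD127-PD-1+ cells the order was Cd74 (2472), H2-Aa (2385), H2-Ab1 (1406), H2-Eb1 (434), H2-DMa (63.2), H2-DMb1 (25.8) and Ciita (11.4). The order was the same in CD4+CD127-PD-1+ cells, from Cd74 at 2001 to Ciita at 6.39, and in both CD127+PD-1- groups, where Ciita measured 2.25 in CD4+ and 3.34 in CD8+ cells. The transcript of the transactivator was thus the least abundant per length in each group. The order of H2-Aa and H2-Ab1 depended on the length used. In CD8+CD127+PD-1- replicate 1 their ratio was 1.45 by principal transcript and 0.911 by the union of all exons. In the same library H2-Aa over Cd74 was 0.972 by principal transcript and 0.344 by exon union.

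The 2 chains of I-A kept close to one ratio. Per length, H2-Aa over H2-Ab1 was 1.76 ± 0.164 (SD over 11 libraries; range 1.45 to 2.04), and H2-Eb1 over H2-Ab1 was 0.291 ± 0.0259 (range 0.249 to 0.341), while H2-Ab1 itself ranged from 125.6 to 2245 CPM. In CD8+ cells the H2-Eb1 ratio nevertheless separated the states, at 0.296 to 0.341 in CD127-PD-1+ and 0.268 to 0.282 in CD127+PD-1- libraries, while in CD4+ cells they overlapped. H2-Ab1 over Cd74 ranged from 0.363 to 0.672. The DM gene H2-DMa did not keep its ratio to H2-Ab1, which was 0.0388 and 0.0547 in CD4+CD127-PD-1+ libraries and 0.0768 to 0.109 in CD4+CD127+PD-1- libraries. In CD8+ cells that ratio was 0.0326 to 0.0572 against 0.0641 to 0.183, and the states did not overlap in either lineage. H2-DMb1 over H2-Ab1 was 0.0127 and 0.0156 against 0.0239 to 0.0319 in CD4+ cells, and 0.0159 to 0.0246 against 0.0232 to 0.0326, with overlap, in CD8+ cells. Ciita over H2-Ab1 was 0.00532 and 0.00737 against 0.00913 to 0.0161 in CD4+ cells, without overlap, whereas in CD8+ cells it was 0.00744 to 0.00890 against 0.00883 to 0.0110, with overlap. H2-DMb1 over H2-DMa ranged from 0.178 to 0.487. These ratios are descriptions, and the exon models used for length shift their absolute size by the same factor in every library.

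**Figure D3:**
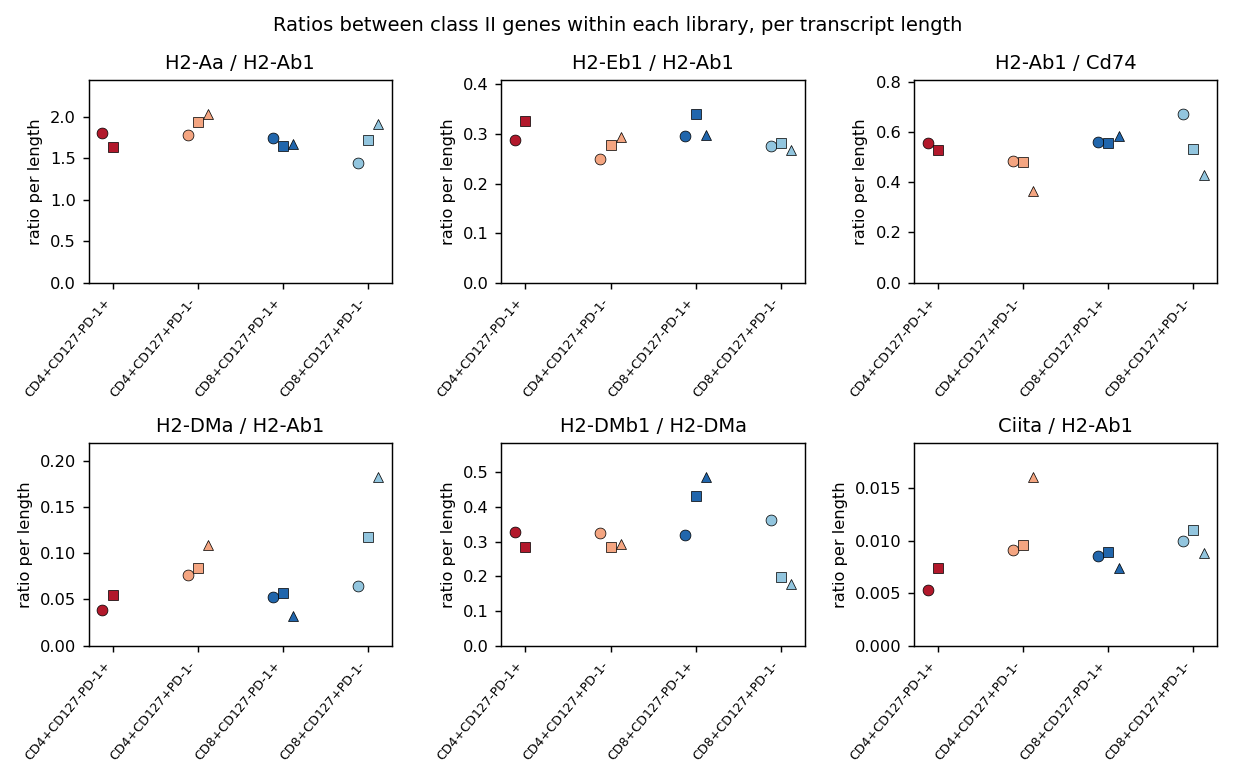
Ratio of 2 class II genes within each library, per transcript length, by sorted group; symbols mark the library number. H2-Aa over H2-Ab1 stays between 1.45 and 2.04, while H2-DMa over H2-Ab1 separates the states in each lineage, with CD127-PD-1+ lower.

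Across the 11 libraries the 7 genes followed each other closely. Each gene's log2 CPM correlated with the mean of the other 6 at Pearson r from 0.95 (H2-DMa) to 0.996 (H2-Ab1), and pairs at 0.923 to 0.998. After the group means were subtracted, which leaves only differences between libraries of the same sort, r was 0.924 (H2-DMa) to 0.995 (H2-Ab1). The points are 11 libraries that share scaling and sort groups, so these values describe the libraries and carry no test.

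Outside the 7 genes, those with the most similar pattern among 8228 candidates included Cyp27a1 (r = 0.994), Csf2ra (0.993), Adrbk2 (0.990), Tns3 (0.985), Cd83 (0.982), Gm15356 (0.981), Gm6377 (0.980), Fgd2 (0.980) and Slc12a9 (0.977). Csf2ra, a chain of the GM-CSF receptor, measured 49.5 ± 38.7 CPM (SD, n = 2) in CD4+CD127-PD-1+ and 7.56 ± 4.66 CPM (SD, n = 3) in CD4+CD127+PD-1- cells, and 69.4 ± 20.3 against 11.3 ± 8.15 CPM in CD8+ cells. Cd83, a surface protein of mature dendritic cells, measured 59.0 ± 29.4 against 15.0 ± 5.23 CPM and 86.7 ± 18.9 against 17.0 ± 11.7 CPM. On deviations from the group means the closest included Naip5 (0.987), Hdac9 (0.984), Cyp27a1 (0.982), Tns3 (0.979), Csf2ra (0.977), Ccdc88a (0.977), Naip6 (0.977), Cdc42bpb (0.975) and Zfp516 (0.974). Cyp27a1, Csf2ra and Tns3 were among the closest by both measures.

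Other genes of the class II locus did not pass the test in either state comparison (0 of 5 tested each, with medians of -0.04 in CD4+ and 1.58 in CD8+ cells, against 0.02 and 0.01 over all genes). H2-Ob, a chain of the DM inhibitor DO that is typical of B cells, measured 18.6 ± 15.2 against 19.0 ± 10.6 CPM in CD4+ cells (log2 fold change -0.04, SE 0.644, edgeR adjusted p = 0.981). In CD8+ cells it measured 48.0 ± 14.7 against 30.5 ± 16.3 CPM (0.65, SE 0.564, edgeR adjusted p = 0.489). At an unadjusted p under 0.05 the counts were 0 in CD4+ and 2 in CD8+ cells, and DESeq2 and limma-voom each called 0 in CD4+ and 1 in CD8+ cells. In CD8+ cells 2 were called higher without either CD4+CD127-PD-1+ library, 2 of 4 tested when only the compared groups were fitted, and 1 without CD4+CD127+PD-1- replicate 3 or without the filter on low counts.

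The factors that assemble on the X and Y boxes differed little. Of 10 genes of the RFX, NF-Y and CREB complex and its coactivators, 0 were higher and 1 lower in CD4+CD127-PD-1+ cells, the acetyltransferase gene Kat2b (-0.54, SE 0.145, edgeR adjusted p = 0.0329; median of the list 0.16). In CD8+ cells 1 was higher, the coactivator gene Ep300 (0.34, SE 0.088, edgeR adjusted p = 0.0228; median 0.20), and 0 lower. Kat2b was not called without CD4+CD127-PD-1+ replicate 1 or 2 or CD4+CD127+PD-1- replicate 1 or 3, nor Ep300 without CD8+CD127-PD-1+ replicate 1 or 3 or CD8+CD127+PD-1- replicate 1 or 2. With library totals alone, 0 were higher and 3 lower in CD8+ cells. The list summed to 1125 to 1160 CPM in CD4+CD127-PD-1+ and 1072 to 1216 CPM in CD4+CD127+PD-1- libraries, which overlapped. In CD8+ cells the sums overlapped as well, at 1101 to 1146 CPM against 988 to 1123 CPM. In CD4+CD127-PD-1+ cells Ep300 (mean 418 CPM) and Crebbp (mean 375 CPM) made up most of the sum (mean 1142 CPM). The sums therefore say little about the RFX and NF-Y genes. Single genes of the list had log2 fold changes of -0.54 to 0.52 in CD4+ and -0.29 to 0.38 in CD8+ cells.

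Of 13 genes that act before Ciita, such as interferon gamma receptors and the factors bound at its promoters, 1 was higher and 1 lower in CD4+ cells (median 0.02) and 3 higher and 1 lower in CD8+ cells (median -0.00323). Spi1, which encodes the myeloid and B cell factor PU.1, measured 35 ± 21.1 against 7.57 ± 2.43 CPM in CD4+ cells (2.20, SE 0.459, edgeR adjusted p = 0.0107) and 56.1 ± 15.9 against 10.1 ± 5.01 CPM in CD8+ cells (2.47, SE 0.424, edgeR adjusted p = 0.00259). Its pattern over the 11 libraries was close to that of the class II genes (r = 0.975). Prdm1, which encodes a repressor of Ciita in plasma cells and is also an effector T cell gene, was higher in CD8+CD127-PD-1+ cells (1.45, SE 0.238, edgeR adjusted p = 0.00204), with 0.83 (SE 0.257, edgeR adjusted p = 0.0579) in CD4+ cells. Jak1, the kinase of interferon and common gamma chain receptors, was lower by -0.45 (SE 0.0934, edgeR adjusted p = 0.0105) in CD4+ and -0.53 (SE 0.0827, edgeR adjusted p = 0.00147) in CD8+ cells. Without CD4+CD127-PD-1+ replicate 1, neither Spi1 (adjusted p = 0.112) nor Jak1 (adjusted p = 0.0936) passed edgeR's test in CD4+ cells.

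Genes of the endosomal step were higher in part. Of 9 proteases and processing genes, 4 were higher and 1 lower in CD4+CD127-PD-1+ cells (median 1.07), and 5 higher and 1 lower in CD8+CD127-PD-1+ cells (median 1.13). Lgmn, the asparagine endopeptidase, measured 53.2 ± 21.2 against 7.46 ± 1.27 CPM in CD4+ cells (2.83, SE 0.379, edgeR adjusted p = 0.000960) and 51.0 ± 21.1 against 4.82 ± 1.51 CPM in CD8+ cells (3.41, SE 0.369, edgeR adjusted p = 0.000196). Ctss, the cathepsin that trims the invariant chain in dendritic cells and B cells, was higher by 1.81 (SE 0.309, edgeR adjusted p = 0.00413) and 2.10 (SE 0.290, edgeR adjusted p = 0.000734). Ctsl, a cathepsin that does so in thymic epithelium, was lower, at 36.3 ± 17.2 against 150 ± 49.2 CPM in CD4+ cells (-2.05, edgeR adjusted p = 0.00777) and 35.3 ± 6.68 against 121 ± 52.1 CPM in CD8+ cells (-1.78, edgeR adjusted p = 0.00465). Ctsd was higher in both (1.15, edgeR adjusted p = 0.000905, and 0.61, edgeR adjusted p = 0.0113). Ifi30, the thiol reductase of endosomes, was higher in CD8+ cells (1.42, edgeR adjusted p = 0.00363) and measured 0.79 (edgeR adjusted p = 0.0994) in CD4+ cells. The CD4+ counts became 3 higher and 0 lower without CD4+CD127-PD-1+ replicate 2, so that Ctsl was not called, and 6 higher without CD8+CD127+PD-1- replicate 1. The CD8+ count of 5 higher became 8 without CD8+CD127+PD-1- replicate 1.

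Of 7 genes of class II turnover and endosomal membranes, 3 were higher in CD4+ cells (median 0.91) and 5 in CD8+ cells (median 1.36), with 0 lower in both. March1, the ubiquitin ligase that removes class II from the surface, measured 45.0 ± 6.31 against 11.2 ± 7.60 CPM in CD8+ cells (2.00, SE 0.545, edgeR adjusted p = 0.0280) and followed the class II genes over the 11 libraries at r = 0.975. In CD4+ cells March1 measured 1.53 (edgeR adjusted p = 0.128). The tetraspanin gene Cd63 was higher in CD4+ (2.82, edgeR adjusted p = 0.00785) and CD8+ cells (1.58, edgeR adjusted p = 0.0475), as was the lysosomal membrane gene Lamp2 (0.91, edgeR adjusted p = 0.0156, and 1.36, edgeR adjusted p = 0.000753). Lamp1 was higher by 0.84 (edgeR adjusted p = 0.0294) and 0.68 (edgeR adjusted p = 0.0371). The count of 3 was 1 without CD4+CD127-PD-1+ replicate 1 or CD4+CD127+PD-1- replicate 2, 2 without CD4+CD127-PD-1+ replicate 2 or CD4+CD127+PD-1- replicate 1, and 5 without CD8+CD127+PD-1- replicate 3. The count of 5 was 1 without CD8+CD127-PD-1+ replicate 2 or 3, 2 without CD8+CD127+PD-1- replicate 2, 3 without replicate 1 of either CD8+ sort or CD4+CD127+PD-1- replicate 1 or 2, and 4 otherwise. The Lamp1 call was lost in CD4+ cells without any 1 of the 5 CD4+ libraries (edgeR adjusted p from 0.0517 to 0.165). The CD8+ call of Lamp1 was lost without 6 of the 11 libraries in turn (edgeR adjusted p up to 0.149), with library totals alone (adjusted p = 0.123), in limma-voom (adjusted p = 0.0503) and with the compared groups alone (adjusted p = 0.0678). The Lamp2 call in CD4+ cells was lost when CD4+CD127-PD-1+ replicate 1 (edgeR adjusted p = 0.149) or CD4+CD127+PD-1- replicate 2 (edgeR adjusted p = 0.0608) was left out. The call of March1 in CD8+ cells was lost without any 1 of the CD8+CD127-PD-1+ libraries or CD8+CD127+PD-1- replicate 2 (edgeR adjusted p from 0.0507 to 0.0831).

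Of 7 costimulatory ligands of presenting cells, 1 was higher in CD4+ cells (median 0.62) and 5 in CD8+ cells (median 1.28), with 0 lower. Cd86, a ligand of CD28 and CTLA-4, measured 59.4 ± 24.1 against 12.4 ± 5.70 CPM in CD4+ cells (2.25, SE 0.418, edgeR adjusted p = 0.00641) and 93.4 ± 22.5 against 22.6 ± 9.43 CPM in CD8+ cells (2.05, SE 0.381, edgeR adjusted p = 0.00412). Its relative Cd80 was higher in CD8+ cells (2.35, SE 0.326, edgeR adjusted p = 0.000750), as was Icosl (1.25, SE 0.235, edgeR adjusted p = 0.00450); in CD4+ cells Cd80 measured 0.43 (edgeR adjusted p = 0.484) and Icosl 0.81 (edgeR adjusted p = 0.0636). Without CD4+CD127-PD-1+ replicate 1 Cd86 did not pass in CD4+ cells (edgeR adjusted p = 0.0518), which left 0 called, and 3 were called without replicate 2. In CD8+ cells 3 were called without CD8+CD127-PD-1+ replicate 2 or 3 or CD8+CD127+PD-1- replicate 2. The MHC class I pathway, which most nucleated cells use, had 0 of 12 genes called in CD4+ cells by edgeR, DESeq2 or limma-voom (2 at an unadjusted p under 0.05; median 0.25) and 1 higher and 1 lower in CD8+ cells (median 0.21). B2m, the class I light chain, measured 3861 ± 82.3 against 3348 ± 204 CPM in CD4+ cells (0.21, SE 0.143, edgeR adjusted p = 0.411). In CD8+ cells Pdia3 was higher (0.66, edgeR adjusted p = 0.00468) and H2-K1 lower (-0.36, edgeR adjusted p = 0.0461). The H2-K1 call was lost without 9 of the 11 libraries in turn (edgeR adjusted p up to 0.177) and with the compared groups alone (adjusted p = 0.0698), and with library totals alone 3 class I genes were lower.

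**Figure D4:**
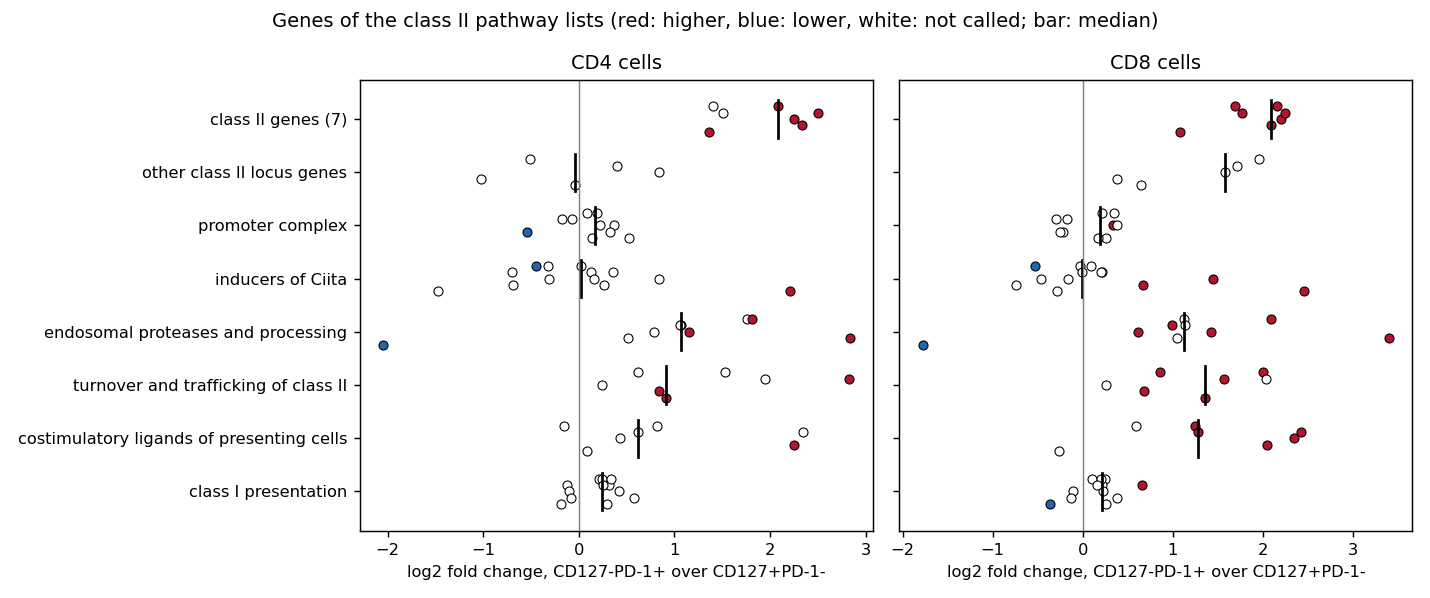
Log2 fold change of each tested gene, CD127-PD-1+ over CD127+PD-1-, by list in CD4+ (left) and CD8+ (right) cells; red points were called higher, blue lower and white not called, and bars are list medians. The 7 class II genes lie between 1.09 and 2.50, and the class I medians are 0.25 and 0.21.

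Macrophage markers moved with these genes. All 15 macrophage genes listed were higher in both state comparisons, with medians of 5.65 in CD4+ and 5.38 in CD8+ cells. DESeq2 and the fit of the compared groups alone each called 14 higher in both comparisons. In CD4+ cells 13 were called without CD4+CD127+PD-1- replicate 2 or 3. In CD8+ cells 14 were called without CD8+CD127-PD-1+ replicate 2 or 3 or CD8+CD127+PD-1- replicate 1. They summed to 1248 and 2655 CPM in CD4+CD127-PD-1+ and 56.9 to 123 CPM in CD4+CD127+PD-1- libraries, and to 1288 to 2482 CPM against 90.8 to 154 CPM in CD8+ cells. C1qa, a complement gene of macrophages, measured 72.3 ± 31.0 against 0.713 ± 0.353 CPM in CD4+ cells (6.63, SE 0.476, edgeR adjusted p = 5.38e-05) and 66.6 ± 27.3 against 0.540 ± 0.171 CPM in CD8+ cells (6.93, SE 0.471, edgeR adjusted p = 1.96e-05). Mertk was the only macrophage gene at 0 counts in any library, in 4 of them. The part of macrophage RNA in the class II result was not tested.

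The size of the 2 changes differed. The summed CPM of the 7 class II genes was 3.91 and 2.90 times the macrophage sum in CD4+CD127-PD-1+ libraries and 13.7 to 18.6 times it in CD4+CD127+PD-1- libraries. In CD8+ cells the ratio was 2.73 to 6.44 against 8.64 to 22.9. Ratios to the dendritic cell sums went the other way, higher in CD127-PD-1+ libraries of each lineage. To the conventional dendritic cell sum the ratio was 43.3 and 37.7 against 8 to 10.8 in CD4+ cells. In CD8+ cells it was 9.12 to 25.6 against 3.64 to 6.38. To the plasmacytoid dendritic cell sum it was 17.4 and 8.39 against 0.672 to 1.48 in CD4+ cells. In CD8+ cells that ratio was 17.4 to 28.2 against 0.914 to 2.39. Over the 11 libraries the macrophage genes correlated with the class II genes at a median r of 0.858, and at 0.520 after the group means were subtracted, against 0.0023 and 0.0156 over all tested genes.

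Dendritic cell lists did not follow one direction. Of 10 conventional dendritic cell genes, 1 was higher in each state comparison, Batf3, a factor of cross-presenting dendritic cells (3.07, edgeR adjusted p = 0.0270, in CD4+ cells and 2.22, edgeR adjusted p = 0.0264, in CD8+ cells), with medians of -0.14 and 0.56. Their sums overlapped between states, 96.2 and 240 against 106 to 249.4 CPM in CD4+ cells and 436 to 909 against 215 to 632 CPM in CD8+ cells. Batf3 was low in every group, at 2.63 ± 1.61 against 0.299 ± 0.202 CPM in CD4+ cells. In CD8+ cells it measured 6.60 ± 1.08 against 1.41 ± 1.18 CPM. In CD4+ cells the call of Batf3 was lost when CD4+CD127-PD-1+ replicate 1 was left out (edgeR adjusted p = 0.180), likewise for each CD4+CD127+PD-1- library (adjusted p = 0.0519 to 0.0879), or in limma-voom (adjusted p = 0.0993). The CD8+ call was lost without any 1 of the CD8+CD127-PD-1+ libraries or without CD8+CD127+PD-1- replicate 2 (edgeR adjusted p from 0.055 to 0.084). Plasmacytoid dendritic cell genes were lower, 7 of 11 in CD4+ and 5 of 11 in CD8+ cells with 0 higher (medians -2.73 and -1.70), among them Ccr9 (-2.80, edgeR adjusted p = 0.00774, and -3.24, edgeR adjusted p = 0.000993) and Siglech (-3.86, edgeR adjusted p = 0.0105, and -4.01, edgeR adjusted p = 0.00251). Without CD4+CD127-PD-1+ replicate 2, 5 were lower and 1 higher in CD4+ cells and Ccr9 was not called (edgeR adjusted p = 0.058). In CD8+ cells 8 were lower without either CD4+CD127-PD-1+ library, in DESeq2 or with the compared groups alone, and 10 with library totals alone or without the filter on low counts. Their sums were 432 and 599 CPM against 982 to 1964 CPM in CD4+ cells, and 389 to 414 CPM against 765 to 1474 CPM in CD8+ cells. Among libraries of the same sort these genes went with the class II genes (median r 0.622 on deviations from group means), while over all 11 libraries they went against them (-0.592). The positive value on deviations was shared by most lists. It was 0.693 for conventional dendritic cell, 0.609 for B cell, 0.573 for kidney tubule and 0.439 for endothelial genes. For other class II locus genes it was 0.826, and for T cell genes -0.677.

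Of 11 B cell genes, 5 were higher in CD8+CD127-PD-1+ cells (median 2.26). In CD4+ cells 0 were called by edgeR, DESeq2 or limma-voom, and 0 at an unadjusted p under 0.05 (median 0.58). The difference between lineages itself was called for none of the 11 genes. Ebf1, an early B cell factor, measured 37.9 ± 17.4 against 6.18 ± 3.67 CPM in CD8+ cells (2.62, SE 0.691, edgeR adjusted p = 0.0246), and Igkc 139 ± 28.5 against 35.3 ± 29.8 CPM (1.98, SE 0.480, edgeR adjusted p = 0.0168). The count of 5 was 0 without CD8+CD127+PD-1- replicate 1, 1 without CD8+CD127+PD-1- replicate 3 or CD8+CD127-PD-1+ replicate 2 or 3, and 8 without either CD4+CD127-PD-1+ library. B cell sums were 588 to 874 CPM against 291 to 504 CPM in CD8+ cells, and 208 and 456 CPM against 333 to 522 CPM in CD4+ cells. Igkc was also lower in CD4+CD127-PD-1+ than in CD8+CD127-PD-1+ cells (-2.56, SE 0.577, edgeR adjusted p = 0.0409), a call lost when either library of the former was left out (adjusted p = 0.145 and 0.240), and when any of the other libraries of the 2 sorts was.

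Endothelial genes were lower in 2 of 4 tested in CD4+ and 3 of 4 in CD8+ cells, with 0 in CD4+ cells without CD4+CD127-PD-1+ replicate 2. Kidney tubule genes were called in 0 of 7 by edgeR, DESeq2 or limma-voom, with 0 and 1 at an unadjusted p under 0.05. The 10 T cell genes had median log2 fold changes of 0.04 in CD4+ and -0.24 in CD8+ cells. The parts of dendritic cell, B cell and other RNA in the class II values were not tested.

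**Figure D5:**
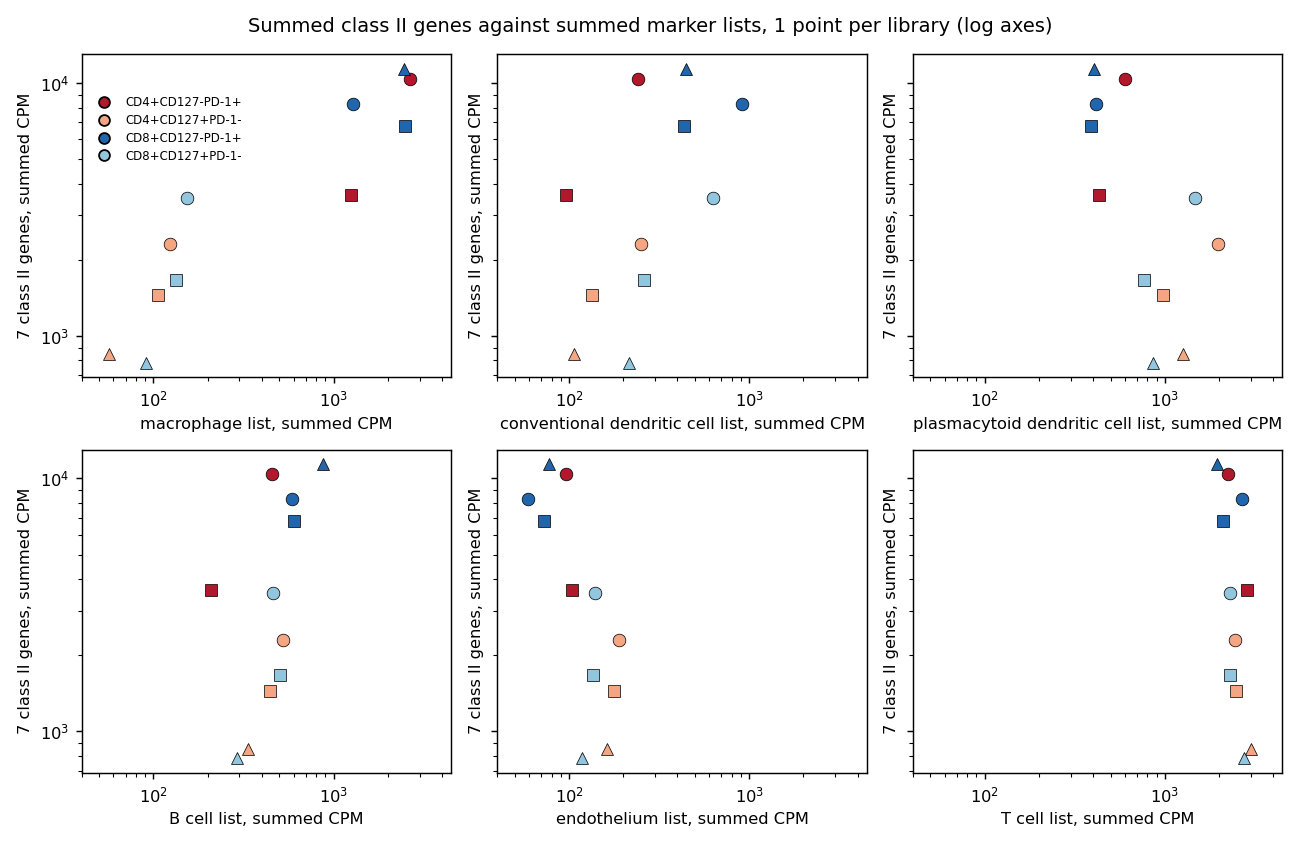
Summed CPM of the 7 class II genes against the summed CPM of each marker list, both on log axes, 1 point per library; colours mark the sorted group and symbols the library number. Libraries of both states separate along the macrophage axis, from 56.9 to 154 CPM against 1248 to 2655 CPM, and lie together on the T cell axis.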

How the data were processed

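RNA of 11 sorted kidney T cell libraries was analysed; per the labels, 2 ng of total RNA was amplified by single primer isothermal amplification and read as 75-base single reads. The authors deposited a table of raw read counts per gene, used as deposited. STAR, featureCounts and GRCm38 were used per the submitters' processing notes. Versions, annotation release and strandedness: not given in the sources used here; reads from a gene and from one antisense to it or overlapping it therefore cannot be separated, and reads of near copies in the H2 family may be assigned uncertainly. Of 12 columns 11 matched labelled samples, and 1 without a label was not used. GENCODE M21 (GRCm38) held 45143 of the 46078 identifiers and gave coordinates and lengths; RefSeq gave promoters.

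Counts were fitted in R 4.3.3 with edgeR 4.0.16 (quasi-likelihood test, filterByExpr, TMM scaling, a mean for each of 4 groups over 11 libraries), with Benjamini-Hochberg adjustment over 16365 genes and a threshold of 0.05. CPM uses TMM-scaled library sizes; log2 CPM a prior count of 2. The standard error is the log2 fold change over the square root of F. Between libraries the common biological coefficient of variation came to 0.244. Library totals were 10572505 to 16057310 counts, and the parts of counting error and of spread between libraries were not tested. The fit was tested on simulated data: of 100 genes each changed by 1 or 2 log2 units, 36% and 91% were recovered in the CD4 comparison and 52% and 91% in the CD8 comparison, over 15832 genes. The changed genes were drawn from those above a minimum mean count, whatever their spread. These rates therefore do not give the recovery of the class II genes in particular.

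The genes and lists were chosen with earlier results of these data known, so they are described by counts and medians without a list test. Named were the 7 genes; from each list the 3 called genes of smallest p per state comparison (1 for lineage comparisons), or the most abundant where none was called; and the 10 genes most alike in pattern, with average log2 CPM of at least 3. Ctsl, Slc39a10, H2-Ea-ps and Mertk were named after their values were seen. Some results that this rule selects are not reported here. Replicate numbers of titles and descriptions differ for some libraries. In the CD127+PD-1- lineage comparison all 3 same-numbered pairs deviated together (r = 0.208, 0.147 and 0.318). These correlations alone do not establish that same-numbered libraries share mice. The main test there was unpaired, and a block changed no class II call. Alternatives were DESeq2 1.42.0, limma-voom (limma 3.58.1), other scalings and filters, the compared groups alone, replicate blocks and each library left out. Figures were drawn in Python 3.11.15.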

Additional observations from a re-analysis of the deposited data

How the results depend on the processing

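All 7 class II genes kept their direction in both state comparisons under all 20 alternatives, and 0 were called in either lineage comparison or in the difference between lineages under any. The number called higher ranged from 0 to 6 in CD4+ cells and from 0 to 7 in CD8+ cells when each library was left out, and was 3 in CD8+ cells with library totals alone. Fewer libraries remain in those fits; for library totals the cause was not tested. With replicate number as a block, 5 (title) and 7 (description) of the 7 genes were called in CD4+ cells and 7 and 7 in CD8+ cells; the description block called Ciita (adjusted p = 0.0231) and H2-DMb1 (adjusted p = 0.0366) in edgeR, as did analysis without the filter. Same-numbered libraries correlated at -0.157 to 0.318 by title (6 of 10 pairs over 0.1) and 0.0883 to 0.325 by description (7 of 8). Pairing is thus not established: the state comparisons have 2 pairs by description number, and by title not all pairs exceed 0.1. In the CD127+PD-1- lineage comparison it would rest on such correlations alone. With the description block H2-Ob was called in CD8+ cells (0.99, adjusted p = 0.0139 in edgeR) and H2-K1 and Lamp1 were not (adjusted p = 0.106 and 0.0921). The title block did not call H2-K1 and Lamp1 in CD8+ cells either (edgeR adjusted p = 0.0634 and 0.0557). In CD4+ cells Lamp1 was not called with the description block (edgeR adjusted p = 0.0652). Of other class II locus genes, the description block called 2 higher in CD8+ cells. The title block called 1 higher in CD8+ and 1 lower in CD4+ cells. Changes of sign touched only values that were not called, and their cause was not tested. The difference between lineages changed sign in limma-voom for H2-Aa (-0.287), H2-Ab1 (-0.127) and H2-Eb1 (-0.141), with the title block for H2-Aa (-0.569), H2-Ab1 (-0.474), H2-Eb1 (-0.441) and H2-DMa (-0.00795), and for Cd74 with library totals (0.147) and the description block (0.0531). With the description block H2-Ob (0.063) and Umod (0.0246) changed sign in CD4+ cells. Leaving out single libraries gave differences between lineages of -1.02 to 0.662 (H2-Aa), -0.716 to 0.827 (H2-Ab1), -0.628 to 0.779 (H2-Eb1), -0.335 to 0.707 (H2-DMa), -1.07 to 0.205 (H2-DMb1), -0.988 to 0.482 (Cd74) and -1.12 to 0.176 (Ciita). The CD127+PD-1- lineage differences ranged over -0.775 to 0.346 (H2-Aa), -1.11 to 0.273 (H2-Ab1), -1.09 to 0.207 (H2-Eb1), -0.967 to 0.262 (H2-DMb1), -0.647 to 0.394 (Cd74) and -1.02 to 0.277 (Ciita), and the CD127-PD-1+ ones over -1.37 to 0.289 (H2-Aa), -1.32 to 0.195 (H2-Ab1), -1.24 to 0.0866 (H2-Eb1) and -1.21 to 0.235 (Cd74). H2-Ob ranged over -1.27 to 0.629 in CD4+ cells and Umod over -3.11 to 0.118 in CD8+ cells. Each group holds only 2 or 3 pools, and the part of sequencing depth in these results was not tested.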
